A study of Arabidopsis thaliana with 12 samples.

Results

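The genes described here are the 146 rows of the deposited count table whose identifier starts with ATMG, the prefix of genes encoded by the Arabidopsis mitochondrial genome, out of 33610 genes in all. They were measured by RNA-seq in 12 libraries of whole rosettes of Col-0 plants, labelled as 21 days old and grown in FlowPots, pots of a peat-based gnotobiotic (microbiologically controlled) growth system. HO (holoxenic) plants received a live soil slurry and AX (axenic) plants the same slurry after autoclaving, and the soil came from MSU or from Malaka, which the sample descriptions call Laurel. The 4 groups, HO-Malaka, AX-Malaka, HO-MSU and AX-MSU, had 3 libraries each. Every library was a pool of 8 rosettes from 4 pots that shared a microbox, so that library and microbox cannot be told apart. All 4 groups were Col-0. The comparisons ask how plants with a live soil community differed from plants without one, and whether the soil mattered.

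Plant mitochondria keep a small genome that encodes some subunits of the respiratory chain and of ATP synthase, proteins of cytochrome c maturation, some ribosomal proteins, and ribosomal and transfer RNAs. Most other mitochondrial proteins are made from nuclear genes and imported, so each respiratory complex is built from products of both genomes. The transcripts are processed from longer precursors, many are edited from C to U, and introns of some genes are joined by trans-splicing of separately transcribed pieces.

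The table gives no gene names, and the RefSeq mitochondrial genome at hand carries other identifiers. Names were therefore taken from RefSeq notes on nuclear genes that cite an ATMG gene as their best protein match. These notes described 45 members, 25 with a product name and 20 only as an unknown protein. The paper's gene lists added symbols for 9, which together gave 33 members a product or a symbol. The others are given by identifier, with no role.

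Those nuclear genes lie in a copy of mitochondrial DNA on chromosome 2, between positions 3239038 and 3509765 of RefSeq assembly TAIR10.1. In this stretch 95.9% of the windows of 50 bases, the read length, occurred identically in the RefSeq mitochondrial genome, and 70.3% of that genome's windows occurred in the stretch. Of the 32 RefSeq mitochondrial protein-coding genes, 15 had every coding window in it and 5 had none. Counts of a mitochondrial transcript may therefore stand on either row. The following 4 starts of coding sequences are shown because each whole coding sequence was identical at both places of the RefSeq assembly. The counts were split differently between the rows. Whether the mitochondrial sequence that the authors mapped to is the same was not checked. The starts are DNA, 5′ to 3′, credited to RefSeq TAIR10.1, with the start codon in capitals.
atp8: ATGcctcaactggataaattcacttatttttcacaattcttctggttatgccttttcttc
cob: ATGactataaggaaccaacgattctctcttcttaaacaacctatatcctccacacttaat
atp1: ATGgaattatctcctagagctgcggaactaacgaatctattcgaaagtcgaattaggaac
atp9: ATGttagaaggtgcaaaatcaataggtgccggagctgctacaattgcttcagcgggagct

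The atp8 start lay at 247433 to 247492 on the minus strand of the mitochondrial genome and at 3386292 to 3386351 on the plus strand of chromosome 2. The cob start lay at 182799 to 182858 (minus) and at 3450863 to 3450922 (plus). The atp1 start lay at 68562 to 68621 (minus) and at 3362505 to 3362564 (plus), and the atp9 start at 271126 to 271185 (minus) and at 3252021 to 3252080 (minus). The product names tie them to ATMG00480 (subunit 8 of the ATP synthase membrane part), ATMG00220 (apocytochrome b of complex III), ATMG01190 (ATP synthase subunit 1) and ATMG01080 (ATP synthase subunit 9).

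The authors' counts went mainly to the ATMG row for ATMG00480 and mainly to chromosome 2 for the others. ATMG00480 held 313418 counts over the 12 libraries and its match AT2G07707 held 47500. ATMG00220 held 33133 and AT2G07727 held 93368. ATMG01190 held 1853 against 339296 on AT2G07698, and ATMG01080 held 484 against 97680 on AT2G07671. The chromosome 2 genes were not all as short as the identical part. In windows of the read length, AT2G07707 had 428, as did the atp8 coding sequence. AT2G07727 had 3194 against 1133 for cob, AT2G07698 had 2346 against 1475 for atp1, and AT2G07671 had 727 against 176 for atp9. The part of these lengths in the split of counts was not tested. The 53 members with a match on chromosome 2 include ATMG00280 and members matched by a note as a pseudogene. The match of ATMG00450, AT2G18323, lay outside the stretch given above. Of the 53 members, 37 had more counts on the match and 15 had over 10 times more, with a median ratio of 2.30. Among members whose match had counts, the reverse was most extreme at ATMG00470, described as an unknown protein, with 915358 counts against 5315 on AT2G07706. The match of ATMG01100, AT2G07812, had no count. AT2G07732, the match of ATMG00280 and described as a RuBisCO large chain, held 1433871 counts and was left out of all sums over matches. How the authors' counting assigned reads with several places is not given in the sources used here, so a low ATMG value need not be a low level of the transcript.

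**Figure D1:**
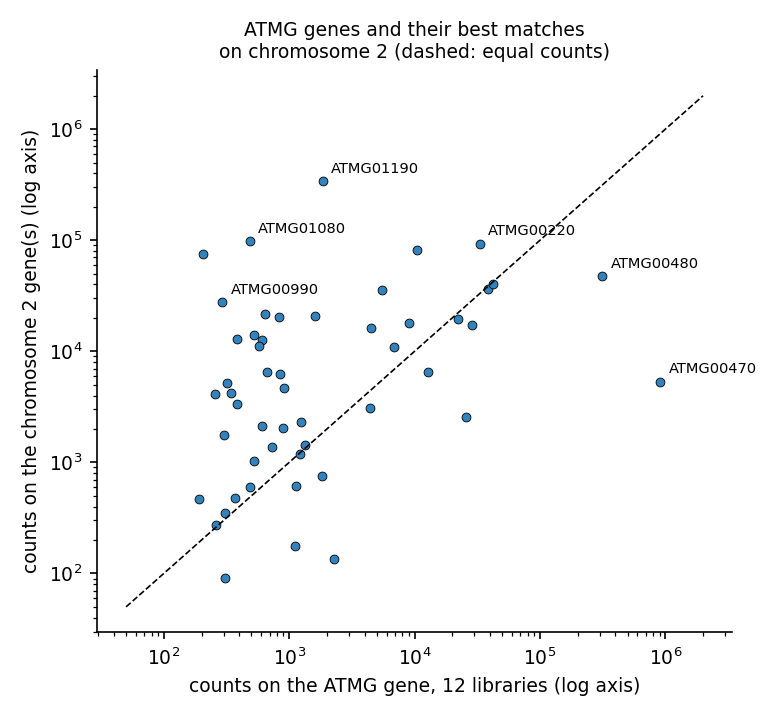
Total counts over 12 libraries on an ATMG gene (x axis, log scale) and on its match or matches on chromosome 2 (y axis, log scale), 1 point per member, with AT2G07732 left out. ATMG01100, whose match had no count, cannot be shown on a log scale. Points above the dashed line of equal counts, such as ATMG01190 with 1853 against 339296, have more counts on chromosome 2.

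Of the 146 members, 2 had no count in any library, which at a floor of 3 counts allows a share of at most 2.9e-05% of the shallowest library, and 138 passed the filter on low counts. Totals per library were between 10211008 and 22710086 counts. The share of nuclear rRNA genes ranged from 9.88% to 21.8%, and that of chloroplast genes from 45.0% to 55.6%. HO-Malaka replicate 2 stood apart in its group, with the highest nuclear rRNA share, against 9.88% and 13.4% in the other HO-Malaka libraries. AX-Malaka replicates 2 and 3 were nearly as high, at 19.9% and 20.4%. Results that change with HO-Malaka replicate 2 are given with and without it. The tissue label was checked with marker genes: the sum of 5 rosette leaf markers ranged from 11407.5 to 13325 CPM (counts relative to a fixed size of the normalised library, by edgeR), whereas 6 root, 4 flower and 2 seed markers reached at most 0.505, 1.68 and 0.122 CPM in any library.

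A lower share of all counts lay on ATMG genes in HO than in AX plants on average, but the ranges overlapped. The share was 2.88%, 3.47% and 3.03% in AX-Malaka and 2.66%, 2.95% and 3.14% in AX-MSU plants. It was 2.07%, 2.87% and 2.40% in HO-Malaka and 2.44%, 2.86% and 2.51% in HO-MSU plants. The lowest AX library thus lay below 2 of the 6 HO libraries, and the means were 3.02% ± 0.271 in AX and 2.53% ± 0.305 in HO plants (SD, n = 6 each), a ratio of 0.836. The ratio was 0.783 between the Malaka groups (0.715 without HO-Malaka replicate 2) and 0.893 between the MSU groups. The widest exact binomial 95% interval, that of AX-Malaka replicate 3, ran from 3.02% to 3.04%. Such intervals cover counting error only and leave out the spread between libraries. They may be too narrow even for that error, because reads lacking molecular identifiers may be copies of each other. The share was not tested, because it is a sum over the members.

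The ratio depended on the denominator. With nuclear rRNA genes and ATMG00020, ATMG01380 and ATMG01390 left out of the counts it was 0.835, close to that of all counts. Per nuclear count outside rRNA genes, which leaves out chloroplast genes as well, ATMG counts came to 9.23% ± 1.08 in AX and 8.62% ± 1.78 in HO plants (SD, n = 6 each), with a ratio of 0.934 (0.874 without HO-Malaka replicate 2). On this scale the direction differed between the soils. The mean was 9.67% in AX-Malaka and 8.31% in HO-Malaka plants, a ratio of 0.859, but 8.78% in AX-MSU and 8.93% in HO-MSU plants, a ratio of 1.02. HO-Malaka replicate 2 stood at 11.4%, against 6.38% and 7.14% in its group, and without it the Malaka ratio was 0.699. The difference between the soils was not tested. Chloroplast genes moved the other way, from 48.2% ± 2.97 of all counts in AX to 51.9% ± 2.20 in HO plants, while nuclear rRNA genes held 15.9% ± 3.69 and 15.8% ± 4.15. The part of these classes in the ATMG share was not tested. In bulk RNA, fewer mitochondria or cells of a type and less mitochondrial RNA per cell cannot be told apart.

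**Figure D2:**
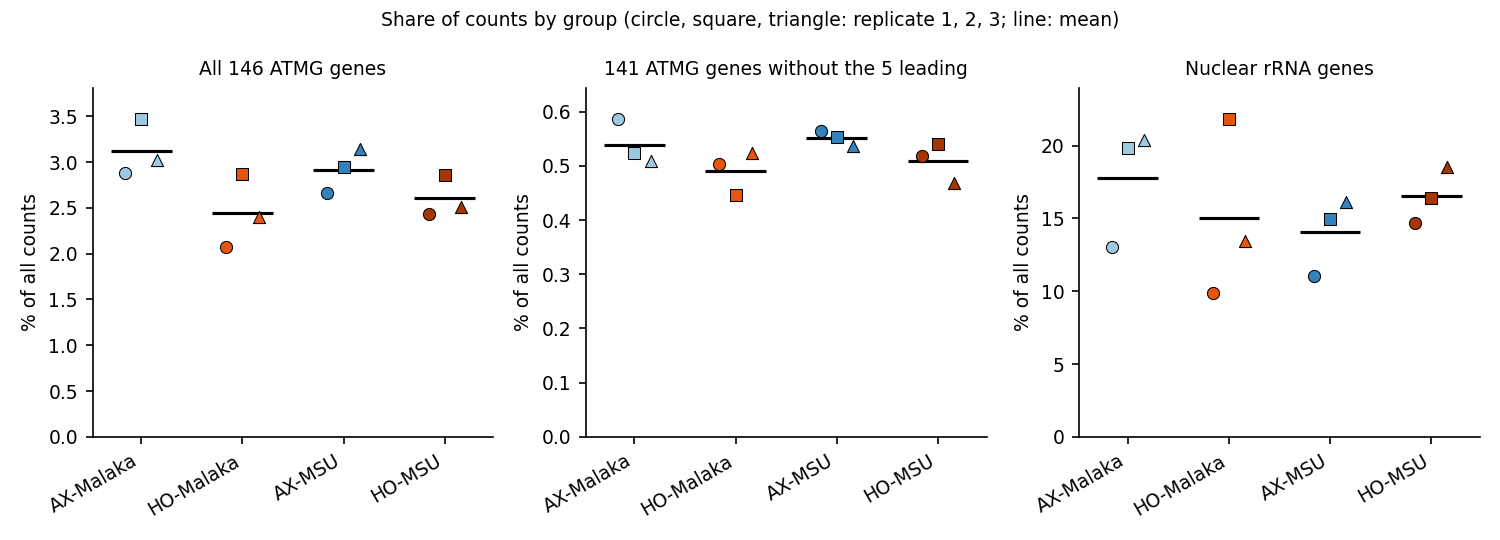
Percent of all counts (y axis) on the 146 ATMG genes, on the 141 members without the 5 with most counts, and on nuclear rRNA genes, by group (x axis), with 1 symbol per library and a line at the group mean. The ATMG shares of HO libraries (2.07% to 2.87%) overlap those of AX libraries (2.66% to 3.47%), and HO-Malaka replicate 2 (square) has the highest rRNA share.

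Mitochondrial counts were concentrated on few members. ATMG00513 held 28.6% of the ATMG counts on average, the leading 3 members (ATMG00513, ATMG00516 and ATMG00470) held 70.5%, and with ATMG00480 and ATMG00460 the leading 5 held 80.8%. The leading 10 held 86.8%, and these were completed by ATMG01390, ATMG00090, ATMG00060, ATMG00110 and ATMG00070, each with between 0.896% and 1.83%. These are shares of counts and not levels, since lengths were not at hand. With the counts on chromosome 2 added, the same 5 members, not ranked anew, held 66.4%. At the other end, 74 members averaged under 100 counts per library. The 141 members outside the leading 5 together took between 0.508% and 0.586% of all counts in AX and between 0.446% and 0.540% in HO plants.

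**Figure D3:**
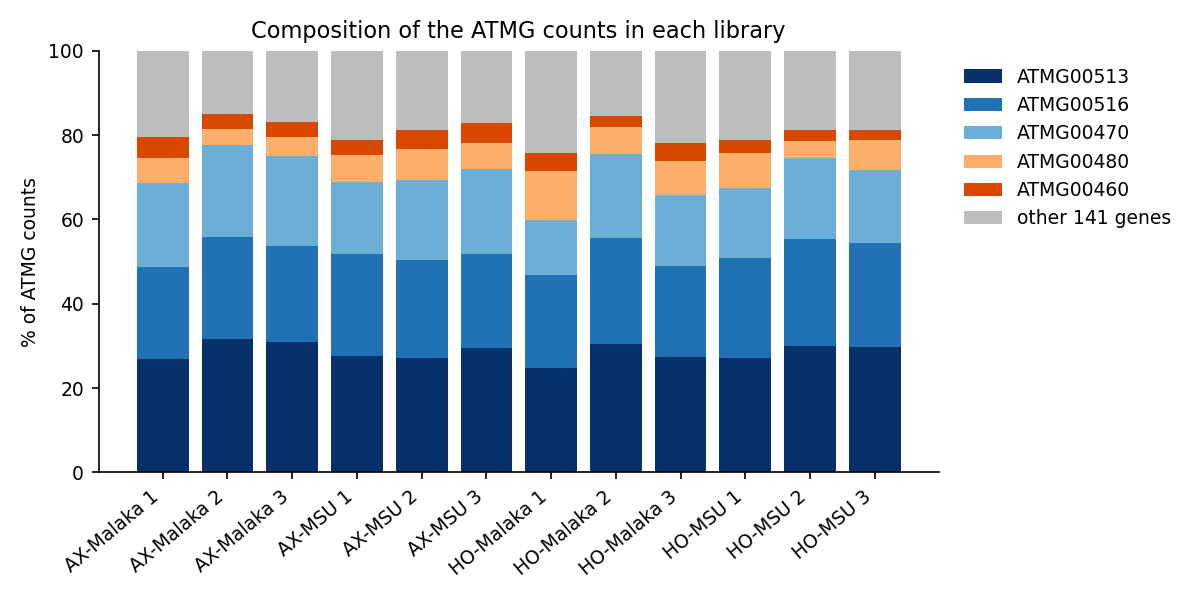
Percent of the ATMG counts (y axis) held by the 5 leading members and by the other 141, for each of the 12 libraries (x axis). The leading 5 hold between 75.7% (HO-Malaka replicate 1) and 84.9% (AX-Malaka replicate 2).

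The leading 3 members varied more between replicates than any other member with a mean of at least 100 CPM. In log2 CPM, their SD within groups was 0.44 for ATMG00470, 0.38 for ATMG00513 and 0.34 for ATMG00516, whereas the median of the 21 such members was 0.15 and the highest among the other 18 was 0.28. In HO-Malaka plants ATMG00513 stood at 4870, 11156 and 5885 CPM, a 2.29-fold range within 1 group. The 3 libraries with the highest nuclear rRNA shares (21.8%, 20.4% and 19.9%, in HO-Malaka replicate 2 and AX-Malaka replicates 3 and 2) were also the 3 with the highest ATMG00513 and ATMG00470 levels. For ATMG00516 HO-MSU replicate 2 (7414 CPM) lay above AX-Malaka replicate 3 (7121 CPM). Of the 146 members, 7 had those as their 3 highest libraries, and how many of all genes did was not counted. The library with the lowest share, HO-Malaka replicate 1, had the lowest levels of ATMG00513, ATMG00516 and ATMG00470. The part of the rRNA share in these levels was not tested. ATMG01390, the sixth by counts, stayed between 462 and 537 CPM in every library.

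Across both soils, 4 of the 138 members tested differed between HO and AX plants, against 10.2% of all 17588 genes tested (edgeR quasi-likelihood test, Benjamini-Hochberg FDR below 0.05). Of these, 3 were higher and 1, ATMG00460, was lower in HO plants, where 5.01% and 5.16% of all genes were called. No member also changed at least 2-fold, the limit for a DEG in the study, which 1.99% of all genes passed. The median log2FC over the members was 0.05, with 87 above 0 and 51 below, and over all genes 0.01. An unadjusted p below 0.05 was found at 7.25% of the members and 22.1% of all genes. Scaling by total counts alone shifted the median of all genes to -0.10 and that of the members to -0.07, and left ATMG00460 as the only member called.

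ATMG00460, for which no product was annotated, was the member with the clearest change. Its level was 1286, 1249 and 1131 CPM in AX-Malaka, 928, 1215 and 1412 CPM in AX-MSU, 841, 895 and 916 CPM in HO-Malaka, and 735, 705 and 734 CPM in HO-MSU plants. The highest HO library was below the lowest AX library, and ATMG00460 was the only member without overlap in either direction, where 1.85% of all genes lay lower and 2.51% higher. Its log2FC was -0.59 ± 0.09 (SE, edgeR FDR = 2.64e-05), with log2FC between -0.70 and -0.51 over all 20 alternatives. The ratio of HO to AX plants was thus 0.665.

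ATMG00460 was lower within each soil as well. The log2FC was -0.71 ± 0.12 between the MSU groups (edgeR FDR = 0.000238) and -0.47 ± 0.12 between the Malaka groups (edgeR FDR = 0.0212). In Malaka plants it was no longer called when AX-Malaka replicate 1 or 2 was left out (edgeR FDR = 0.0891 and 0.0809) and with total counts (FDR = 0.130). The difference between the soils was -0.24 ± 0.17 and was not called (edgeR interaction, FDR = 0.771).

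The members called higher were low to middling in level and changed little. ATMG01350, with no annotated product, stood between 24.8 and 29.3 CPM in AX plants (median 27.3) and between 27.3 and 35.7 CPM in HO plants (median 33.6), where only HO-Malaka replicate 3 reached into the AX range. Its log2FC was 0.28 ± 0.07 (edgeR FDR = 0.0123). ATMG01040, described as an unknown protein, stood between 33.6 and 41.6 CPM in AX plants (median 34.3) and between 38.4 and 50.6 CPM in HO plants (median 40.1). Its log2FC was 0.23 ± 0.07 (edgeR FDR = 0.0432), and the call was lost when the counts of its chromosome 2 matches were added (FDR = 0.187). ATMG00040, not annotated, stood between 6.15 and 7.36 CPM in AX plants (median 6.84) and between 6.35 and 10.1 CPM in HO plants (median 9.00), with a log2FC of 0.35 ± 0.12 (edgeR FDR = 0.0498). Both were near the threshold: ATMG01040 lost its call when any one of 9 of the 12 libraries was left out, and ATMG00040 when any one of 11 was.

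**Figure D4:**
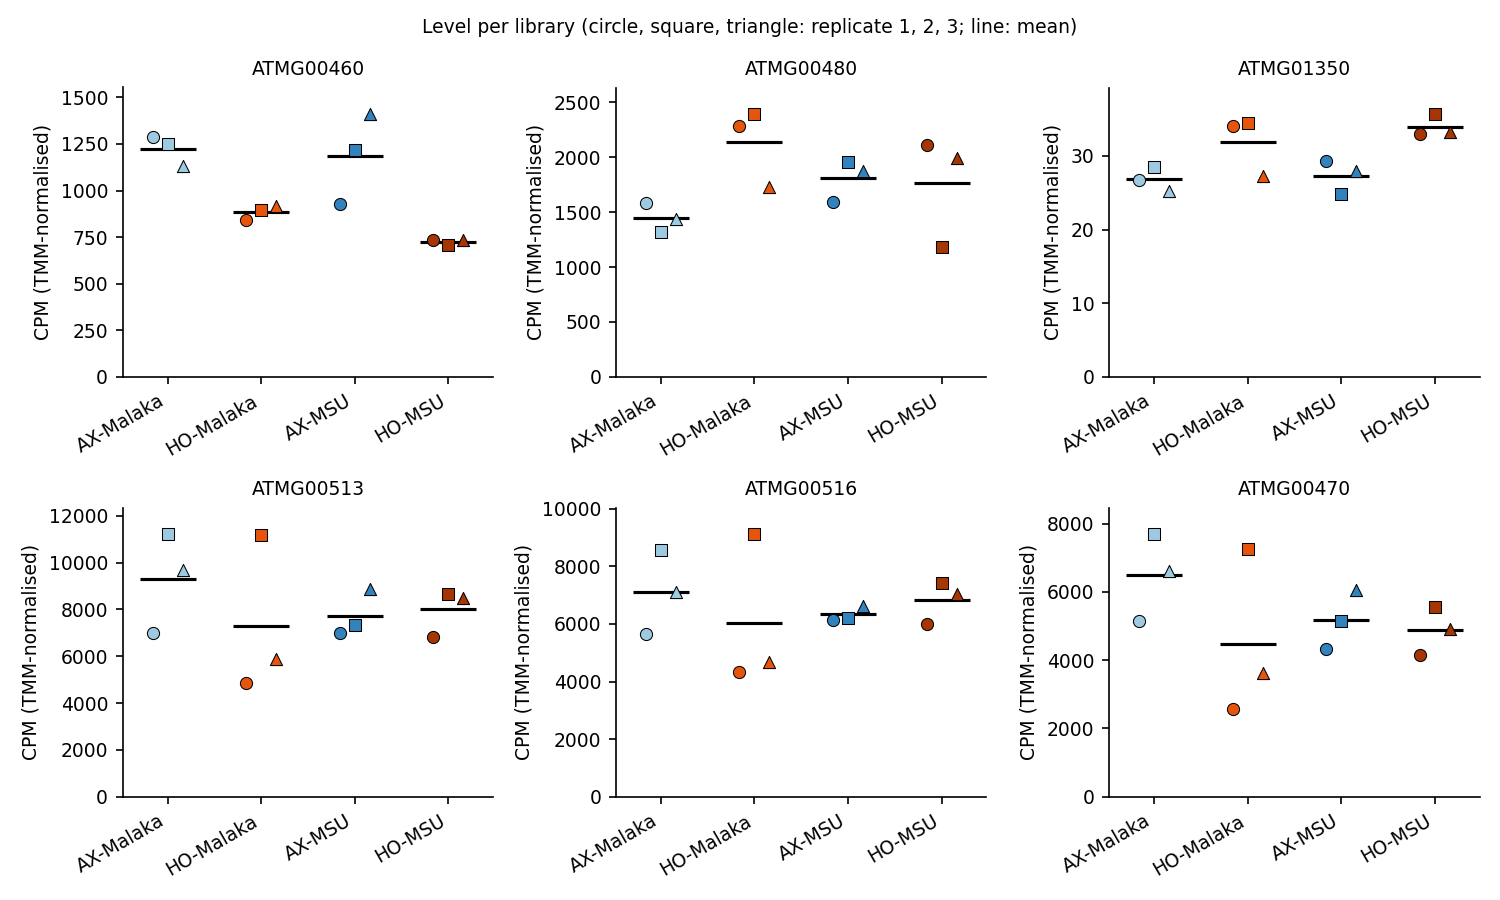
CPM after TMM normalisation (y axis) of 6 members by group (x axis), with 1 symbol per library and a line at the group mean. ATMG00460 is lower in all 6 HO libraries, ATMG00480 does not overlap between HO-Malaka and AX-Malaka, and ATMG00513, ATMG00516 and ATMG00470 are high in HO-Malaka replicate 2 (square).

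The other leading members were not called across both soils. ATMG00470 had a log2FC of -0.31 ± 0.16 (FDR = 0.280), ATMG00513 of -0.15 ± 0.15 (FDR = 0.622) and ATMG00516 of -0.07 ± 0.14 (FDR = 0.837, edgeR for all). Without HO-Malaka replicate 2, ATMG00470 was called lower, at a log2FC of -0.51 (edgeR FDR = 0.0291), where 4.39% of all genes were called lower, and it was also called with no filter on low counts (FDR = 0.00562). ATMG00480 had a log2FC of 0.26 ± 0.13 (edgeR FDR = 0.212), and was called higher without HO-MSU replicate 2 (0.40, FDR = 0.0125) and with no filter (0.26, FDR = 0.0315). ATMG01390, ATMG00020 and ATMG01380 had log2FC of -0.04 ± 0.07, 0.16 ± 0.08 and 0.22 ± 0.12 (edgeR FDR = 0.797, 0.252 and 0.292), and the 95% interval of the first ran from -0.17 to 0.09. ATMG00090, ATMG00060, ATMG00110 and ATMG00070 had log2FC between -0.12 and 0.04, with FDR of at least 0.325.

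Described by role, none of the annotated respiratory or ribosomal genes was called across both soils. These roles cover only members named by the notes, so other genes of these complexes may stand among the 93 members without a description. A name in the notes need not mean a subunit gene. Among the RefSeq mitochondrial coding genes only cob stands for cytochrome b and only atp9 for ATP synthase subunit 9. ATMG00590 and ATMG01090, with similar names, may therefore be other reading frames. As given above, counts of a named gene may also stand on chromosome 2, so these values describe the ATMG rows only. The 3 members named as NADH dehydrogenase, the complex that takes electrons from NADH, had log2FC between -0.07 (ATMG01320, subunit 2B) and 0.32 (ATMG01275, subunit 1A), and ATMG00990 (subunit 3) lay at 0.14. The members named as cytochrome b, a part of complex III, lay at -0.20 (ATMG00220, apocytochrome b) and 0.10 (ATMG00590). The members named as cytochrome c oxidase, the terminal oxidase of the chain, lay at 0.04 (ATMG00730, subunit 3) and 0.24 (ATMG01280, subunit II-like). The smallest edgeR FDR among these 7 members was 0.253.

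The 5 members named as parts of ATP synthase, which makes ATP from the proton gradient, had log2FC between -0.01 (ATMG00410, subunit 6-1) and 0.26 (ATMG00480). The 3 cytochrome c maturation members (ATMG00180, ATMG00900 and ATMG00960), which attach heme to cytochrome c, lay between 0.07 and 0.14. The 4 ribosomal protein members lay between -0.20 (ATMG01270, S7) and 0.09 (ATMG00290, S4), with ATMG00210 (L5) and ATMG00980 (S12) between them. Among 6 members with other products, the range was from -0.11 (ATMG00610, a putative membrane lipoprotein) to 0.30 (ATMG00370, a Ycf1 protein). Of the 20 unknown proteins 11 had a positive log2FC and 1 was called, and of the 85 members tested without any description 49 had a positive log2FC and 3 were called.

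A further 7 members were included because they stand in the study's list of DEGs for these samples, which makes their direction no independent evidence. They are 5 with tRNA symbols (ATMG00230, ATMG00340, ATMG00780, ATMG00790 and ATMG01160) and the ORFs ATMG00130 and ATMG00600. None was called here by edgeR, so the calls differ from those of the study. The study used DESeq2 with an FDR below 0.05 and a change of at least 2-fold. The cause of the difference was not tested. Their levels were between 0.240 and 3.86 CPM in any library, their log2FC between 0.24 ± 0.34 (ATMG00340) and 0.76 ± 0.38 (ATMG00230), and their edgeR FDR between 0.195 and 0.750. At such levels differences of this size could not be told from the replicate spread.

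**Figure D5:**
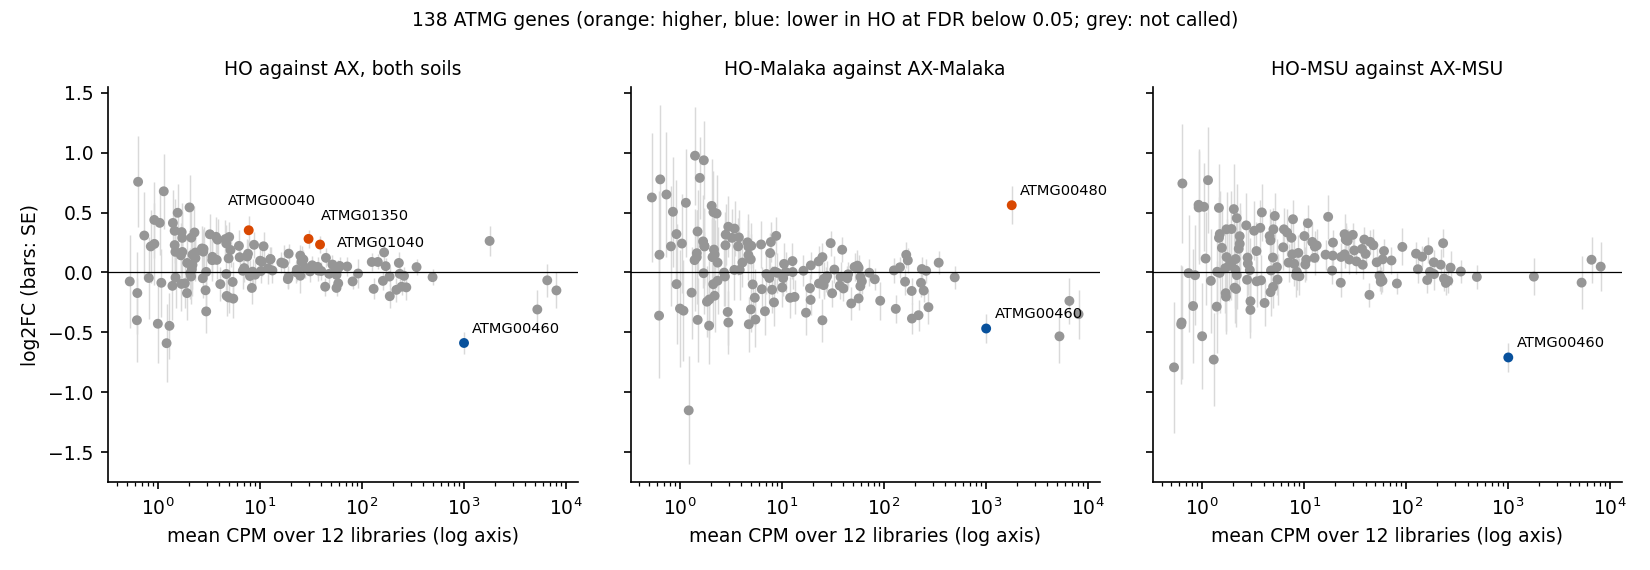
log2FC of HO against AX (y axis, bars: SE) against mean CPM over the 12 libraries (x axis, log scale) for the 138 members tested, across both soils and within each soil. Coloured points passed an FDR of 0.05: 4 across both soils, 2 in Malaka and 1 in MSU plants.

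In the Malaka comparison 2 members were called, 1 in each direction, against 4.38% of all genes (2.49% higher and 1.89% lower). ATMG00460 was lower, as given above. ATMG00480, a subunit of ATP synthase, was higher in HO-Malaka plants, at 2281, 2396 and 1731 CPM against 1582, 1320 and 1441 CPM in AX-Malaka plants, so the groups did not overlap. Such a gap was found at 5 members that were higher and 4 that were lower, where 10.1% and 9.11% of all genes had one. The log2FC of ATMG00480 was 0.56 ± 0.16 (edgeR FDR = 0.0353). In MSU plants its levels overlapped, at 2109, 1184 and 1997 CPM in HO and 1591, 1953 and 1875 CPM in AX plants, and the log2FC was -0.03 ± 0.16 (edgeR FDR = 0.942). The difference between the soils was -0.60 ± 0.22 and was not called (edgeR interaction, unadjusted p = 0.0120, FDR = 0.418).

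The ATMG00480 call was not stable. It was lost with DESeq2 (adjusted p = 0.127), with total counts (edgeR FDR = 0.227) and without any one of AX-Malaka replicates 1 to 3 or HO-Malaka replicates 1 and 2 (edgeR FDR between 0.0560 and 0.194). The match on chromosome 2, AT2G07707, stood at 255, 260 and 288 CPM in AX-Malaka and 222, 314 and 255 CPM in HO-Malaka plants, with a log2FC of -0.02 ± 0.11 (edgeR FDR = 0.952). With both rows added, the log2FC was 0.48 (edgeR FDR = 0.0533).

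The Malaka result changed with HO-Malaka replicate 2. Without that library 18 members were lower in HO-Malaka plants and none higher, where 2.31% and 2.89% of all genes were called. The HO-Malaka libraries left had nuclear rRNA shares of 9.88% and 13.4%, against 13.1%, 19.9% and 20.4% in AX-Malaka plants. The part of the rRNA share in these calls was not tested. Among the 18 were ATMG00470 (log2FC = -1.06, FDR = 2.88e-05), ATMG00870 (-0.83, FDR = 3.85e-05), ATMG00513 (-0.79, FDR = 0.000789), ATMG00516 (-0.66, FDR = 0.00139) and ATMG00220, apocytochrome b (-0.65, FDR = 0.000120), all by edgeR. ATMG00870 stood at 28.2, 25.3 and 30.1 CPM in AX-Malaka and 15.4, 33.5 and 15.8 CPM in HO-Malaka plants. For ATMG00870 and ATMG00516 replicate 2 lay above the AX-Malaka libraries, and for ATMG00470, ATMG00513 and ATMG00220 within their range, while replicates 1 and 3 lay below them for all 5. The chromosome 2 match of ATMG00220, AT2G07727, was spread less, at 531, 547 and 495 CPM in HO-Malaka plants against 123, 218 and 147 CPM on the ATMG row.

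Between the MSU groups ATMG00460 was the only member called, against 6.58% of all genes by the same test (3.3% higher and 3.28% lower). No member was higher by this test or by DESeq2, although some alternative edgeR fits called members higher. In either direction, 10.1% of the members had an unadjusted edgeR p below 0.05, against 18.9% of all genes. The groups did not overlap at 30 of the 138 members, 27 of them higher and 3 lower in HO-MSU plants, where 12.4% of all genes lay in each direction. The median log2FC of the members was 0.11, and it was -0.06 with total counts, when that of all genes moved from 0.00 to -0.16. When the 6 MSU libraries were fitted alone by edgeR, 6 of 136 members were called, 5 higher and 1 lower, against 9.12% of all genes in that fit. ATMG01350 was nearest to a call in the fit of all libraries, with a log2FC of 0.31 ± 0.10 (edgeR FDR = 0.0591).

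Between the soils no member was called in AX plants (0.648% of all genes called) or in HO plants (0.29%), and none had a soil by treatment interaction (0.279%). DESeq2 also called none in the 3 comparisons. At an unadjusted p below 0.05 edgeR had 11, 6 and 13 of the 138 members, respectively. These were 7.97%, 4.35% and 9.42% of the members, against 9.40%, 9.15% and 8.11% of all genes. In AX plants the smallest p was that of ATMG00160, with a log2FC of MSU to Malaka of -0.31 ± 0.10 (edgeR FDR = 0.222). In HO plants it was that of ATMG00540, an unknown protein, at 0.44 ± 0.18 (edgeR FDR = 0.425).

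These counts of 0 again rested on HO-Malaka replicate 2. Without it, 12 members were higher in HO-MSU than in HO-Malaka plants (0.652% of all genes called higher) and 15 had a positive interaction (0.647% of all genes). The HO-Malaka libraries left had nuclear rRNA shares of 9.88% and 13.4%, against 14.7%, 16.4% and 18.6% in HO-MSU plants. The part of the rRNA share here was not tested. The interaction was largest for ATMG00890, at a log2 difference of 1.21 (edgeR FDR = 0.000584), and ATMG00870, at 1.15 (FDR = 0.000155), neither of which is annotated. ATMG00890 stood at 9.77, 24.3 and 13.8 CPM in HO-Malaka plants and at 16.7, 21.5 and 19.7 CPM in HO-MSU plants. With all libraries, its interaction was 0.80 ± 0.26 (edgeR FDR = 0.293). The AX comparison had no call with any library left out.

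To compare members with each other, the same fit was run with each library scaled to its ATMG counts by TMM. Relative to the other ATMG genes, ATMG00460 was again the only member called across both soils, against 6.58% of all genes, at a log2FC of -0.62 ± 0.11 (edgeR FDR = 0.000618). It was also the only one called in MSU plants (-0.81 ± 0.15, edgeR FDR = 0.00108; 4.61% of all genes). No member was called in Malaka plants, where 2.49% of all genes were, 9.42% of the members and 12.8% of all genes had an unadjusted p below 0.05, and the lowest FDR, 0.0904, was that of ATMG00480. When libraries were scaled by the plain sum of ATMG counts, of which the leading 3 members held most, ATMG00460 had a log2FC of -0.42 and was not called (edgeR FDR = 0.291).

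Nuclear genes of the same machinery were examined beside the members. Of 66 nuclear genes in lists of respiratory subunits, mitochondrial gene expression, and alternative respiration and mitochondrial stress, 60 were tested. Between HO and AX plants 1 was higher and 6 were lower, where 5.01% and 5.16% of all genes were called. The median log2FC of the 60 was -0.09, while that of the ATMG members was 0.05. By list, the medians were -0.10 for complex I, 0.01 for complex II, -0.12 for complex III with cytochrome c, -0.02 for complex IV, -0.19 for ATP synthase, -0.07 for the expression machinery and 0.02 for alternative respiration and stress.

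The nuclear genes that were lower had log2FC between -0.34 and -0.22. NDA1 (AT1G07180), an alternative NADH dehydrogenase that pumps no protons, stood between 37.0 and 47.6 CPM in AX plants (median 41.3) and between 29.3 and 36.8 CPM in HO plants (median 32.5), without overlap. Its log2FC was -0.34 ± 0.07 (edgeR FDR = 0.00264). The ATP synthase genes ATP3 (AT2G33040, subunit gamma) and ATPQ (AT3G52300, subunit d) had log2FC of -0.28 ± 0.07 (edgeR FDR = 0.0117) and -0.23 ± 0.07 (FDR = 0.0294). MORF8 (AT3G15000), a factor of organellar RNA editing, lay at -0.28 ± 0.07 (edgeR FDR = 0.0149), and EMB1467 (AT5G37510), a complex I subunit, at -0.22 ± 0.07 (FDR = 0.0426). The Rieske iron-sulfur gene RISP (AT5G13440) lay at -0.27 ± 0.08 (edgeR FDR = 0.0175), and since the neighbouring gene AT5G13430 is near-identical, the split of reads between them is uncertain.

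OM66 (AT3G50930), a mitochondrial outer membrane protein used as a stress marker, was the only nuclear gene of the lists that was higher. It was near the lower limit of detection, between 0.138 and 1.43 CPM in AX plants (median 0.882) and between 1.41 and 2.44 CPM in HO plants (median 1.78). AX-MSU replicate 1, the highest AX library, lay above the lowest HO library. The log2FC was 1.21 ± 0.34 (edgeR FDR = 0.0201). AOX1A (AT3G22370), the main alternative oxidase gene, had a log2FC of -0.20 ± 0.14 (edgeR FDR = 0.423), and COX17 (AT3G15352), a copper chaperone of cytochrome c oxidase, had the most negative value of all lists, -0.79 ± 0.37 (FDR = 0.201). Within Malaka plants no gene of the lists was called by edgeR, and within MSU plants 5 of 60 were lower, where 3.28% of all genes were.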

How the data were processed

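Per the paper and the labels, the authors made stranded libraries with a NuGEN Ovation RNA-SEQ kit for Arabidopsis. They sequenced the libraries as single reads of 50 bases and trimmed the reads with Trimmomatic 0.39. The reads were mapped with STAR to TAIR10 and counted per gene with featureCounts (Rsubread). The part of library preparation in the shares of rRNA and organelle genes was not tested. The deposited values are raw counts, whole numbers without normalization, 1 column per library, and were used as they stand. The annotation and the handling of multi-mapping reads are not given in the sources used here.

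Genes were tested with edgeR 4.0.16 in R 4.3.3 (glmQLFit and glmQLFTest, TMM) after filterByExpr (minimum count 10, minimum total 15, groups of 3), with soil as a term for HO against AX and contrasts of the 4 groups otherwise. P-values were adjusted by Benjamini-Hochberg over all 17588 genes. SEs were derived from log2FC and F, and intervals are log2FC ± 1.96 SE. CPM refer to TMM-normalised library sizes. The code was tested on simulated data. Libraries of a group differed by more than sampling noise, so none was merged.

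Alternatives were DESeq2 1.42.0, RLE factors, total counts, library sizes from nuclear genes without rRNA genes, no filter, no soil term, the libraries of a soil alone, a replicate block and each library left out. Adding the counts of chromosome 2 matches, the share without the leading 5 members, and the shares by soil without HO-Malaka replicate 2, were chosen after seeing the data.

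Named members were 3 preset identifiers, the 10 with most counts, called members (at most 5 in each direction), the 7 selected by the study and the extremes of each role. ATMG01350 in MSU plants, and the members named without HO-Malaka replicate 2, were chosen after their values were seen. From the nuclear lists 7 genes were dropped because their reference names differed. Members and lists were chosen with earlier results of these data known.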

Additional observations from a re-analysis of the deposited data

How the results depend on the processing

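Numbers of members called, by comparison, depended on the setting. Percentages in brackets after them give the share of all genes called in the same fit. Across both soils 4 members were called (10.2%), 1 with total counts (7.72%) and 2 with no soil term (8.95%). With a library left out it was between 2 and 4 (7.76% to 11.7%). It was 2 without AX-Malaka replicate 2 or 3, any AX-MSU replicate, or HO-MSU replicate 1 or 3. For the Malaka comparison (2 members, 4.38%), DESeq2 gave 1 (4%), total counts 0 (2.14%) and no filter 6 (3.5%). Leaving out a library gave between 0 and 18. It was 0 without AX-Malaka replicate 1 (3.07%) or 2 (2.7%), and 1 without AX-Malaka replicate 3 (2.87%) or HO-Malaka replicate 1 (3.82%). It was 18 without HO-Malaka replicate 2 (5.2%). For the MSU comparison (1, 6.58%), no filter gave 2 (4.65%) and the soil's libraries alone 6 (9.12%). Leaving out a library gave between 1 and 3. It was 3 without HO-Malaka replicate 1 (8.03%) or 2 (7.79%), and 2 without HO-Malaka replicate 3 (6.22%). With no filter, 1 member was called between the AX groups (0.901%), 1 between the HO groups (0.66%) and 2 for the interaction (0.632%). With a library left out, between 0 and 12 were called for the HO groups and between 0 and 15 for the interaction. Both were highest without HO-Malaka replicate 2 (1.23% and 1.06%). Relative to ATMG, library sizes from all ATMG counts gave 0 across both soils (3.33%), 1 in Malaka (2.91%) and 0 in MSU plants (1.55%). Without ATMG00020, ATMG01380 and ATMG01390 they gave the same numbers (3.28%, 2.87% and 1.48%). The fit scaled by TMM gave 1 (6.58%), 0 (2.49%) and 1 (4.61%). In that fit, leaving out a library gave between 1 and 3 across both soils, between 0 and 13 in Malaka plants and 1 in MSU plants (1.91% to 10.1%). Without HO-Malaka replicate 2 it was 3 across both soils (6.6%) and 13 in Malaka plants (7.16%). Without HO-MSU replicate 2 it was 1 in Malaka plants (2.44%). The nuclear lists (7 genes, 10.2%) gave between 4 and 10, with 4 without AX-Malaka replicate 1 (8.39%) or HO-MSU replicate 1 (8.25%). The log2 ratio of the ATMG share, -0.26, was between -0.30 and -0.21 with a library left out, and -0.10 per nuclear count outside rRNA genes. The share of the leading 5 members was 80.8%, between 80.5% and 81.3% with a library left out, and 66.4% for the same 5 with chromosome 2 counts added. The cause of these shifts was not tested.

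The labels number the replicates 1 to 3 in each group. Same-numbered libraries of different groups correlated between -0.03 and 0.19 in their deviations from group means, and since only 1 of the 18 pairs was over 0.1, the numbers were not taken as pairs. As a hint from the data to the contrary, 9 of 12 libraries correlated best with their own number. With a replicate block, members called were 4 across both soils (10.9% of all genes), 5 in Malaka plants (5.38%), 3 in MSU plants (7.74%) and 1 for the interaction (0.591%), and relative to ATMG 2 across both soils (7.16%) and 2 in Malaka plants (3.02%). Among single members, ATMG00470 relative to ATMG was called with the block (log2FC = -0.39, edgeR FDR = 0.0253). No direction of a called member turned under any alternative. Depth limited the 74 members with under 100 counts per library on average, whose differences were not detectable unless large.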
